A study of Mus musculus with 3 samples.

Results

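Described here are 9 genes in 3 cultured populations of JC, a mammary carcinoma line of the mouse: the transcription factor genes Snai1, Snai2, Twist1, Twist2, Zeb1, Zeb2 and Prrx1, and the mesenchymal marker genes Vim and Fn1. They were taken by symbol from a deposited table of 55471 features, where each symbol had a single row. All 9 were measured, meaning a mean of at least 1 TPM, a transcript level scaled for gene length and library total; 14527 features passed that limit. The population JC-WT carries the label WT and no further treatment. The population JC-P was recovered 14 days after injection of JC cells into the mammary fat pad, from the tumours. The population JC-M3 arose from cells of JC-P that were injected into the tail vein and recovered with collagenase from lung lesions 28 days later, over 3 cycles. All 3 share the genotype label WT, the serum-containing DMEM medium and the poly(A) library kit. JC-P has the treatment label metastasis, like JC-M3, so its fat pad origin rests on the protocol alone. The sources used here do not give the host strain, the number of animals behind each population, or how host cells were removed.

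There was 1 library per population, so no difference was tested and each ratio describes a pair of libraries. Reads assigned to genes, estimated from the deposited TPM and gene lengths, came to 18093426 (JC-WT), 22132593 (JC-P) and 23386413 (JC-M3). All read numbers given here were recovered in this way. Unless stated otherwise, 3 values in a row are ordered JC-WT, JC-P, JC-M3. The first step is the ratio of JC-P to JC-WT, the second step that of JC-M3 to JC-P, and the end-to-end ratio that of JC-M3 to JC-WT. Each ratio is a log2 value on TPM + 0.5, and a gene is called higher or lower at 2-fold or more. Brackets hold the 95% exact interval of the plain ratio, which covers counting error alone; the added 0.5 draws low genes towards 0 and can place them outside that interval.

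Epithelial-mesenchymal transition is the process in which epithelial cells loosen their junctions and take on the shape, cytoskeleton and matrix production of mesenchymal cells. The SNAIL and ZEB proteins are zinc finger repressors that bind E-boxes, short DNA motifs found among other places in the promoter of the E-cadherin gene Cdh1. The TWIST proteins are basic helix-loop-helix factors that pair with E proteins, and PRRX1 is a homeobox factor of mesenchymal lineages. Vimentin is the intermediate filament protein of mesenchymal cells, and fibronectin is a matrix glycoprotein that integrins bind and assemble into fibrils.

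The cells carry the label epithelial-like, and their markers were mixed in every library. Epcam, which encodes an epithelial adhesion molecule, had 0 reads in each library; a floor of 3 reads there allows up to 0.255 TPM in JC-WT. Cdh1 had 0, 25 and 21 reads, equal to 0, 0.832 and 0.669 TPM. Set against the floor of 3 reads in JC-WT, the listed level of Cdh1 was 6.81-fold in JC-P and 5.48-fold in JC-M3, while staying under 1 TPM. These folds leave out counting error in JC-P and JC-M3. With it, the exact intervals of the log2 ratios to JC-WT started at 2.36 for JC-P and 2.03 for JC-M3. Krt8, a simple epithelial keratin gene, was abundant at 1503, 1873 and 681 TPM. Of 10 mammary epithelial markers 4 were measured, with summed levels of 1631, 1991 and 788 TPM, mostly from Krt8, and Elf5 had 0 reads throughout.

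All 7 transcription factor genes were present in every library, and their order by TPM was partly rearranged in JC-M3. From highest to lowest, JC-WT had Vim, Fn1, Snai1, Twist1, Prrx1, Twist2, Zeb1, Snai2 and Zeb2, and the only neighbours with overlapping 95% Poisson intervals were Zeb1 and Snai2. In JC-P the intervals of Snai1, Prrx1 and Twist1 overlapped from neighbour to neighbour, as did those of Zeb1 and Snai2. In JC-M3 Twist2 stood behind Snai2 and Zeb1, in the last place but one, and the overlapping neighbours were Snai1 with Twist1 and Snai2 with Zeb1. Vim ranked 27, 24 and 27 among measured features, and Fn1 ranked 306, 205 and 109.

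**Figure D1:**
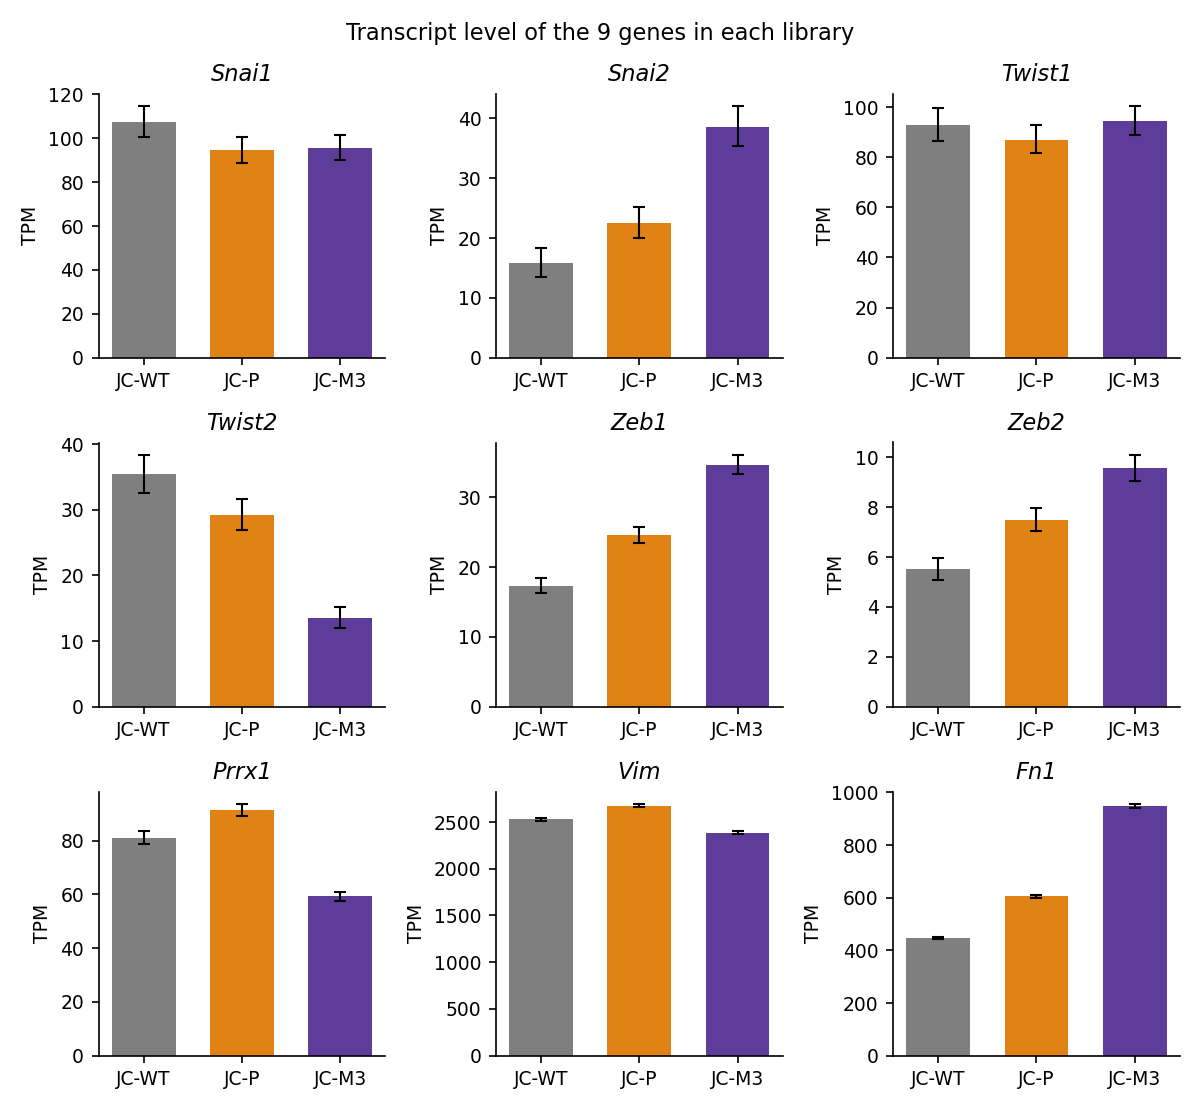
Transcript level (TPM) of each of the 9 genes in 1 library per population (JC-WT, JC-P, JC-M3); error bars are 95% Poisson counting intervals. Snai2, Zeb1, Zeb2 and Fn1 were lowest in JC-WT and highest in JC-M3, Twist2 was lowest in JC-M3 at 13.5 TPM, and Snai1, Twist1 and Vim were nearly level.

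Along the 3 populations Snai2, Zeb1, Zeb2 and Fn1 had higher levels at each step, and Twist2 a lower one. Counting intervals lay above no change at both steps for Snai2, Zeb1, Zeb2 and Fn1, 4 of 9 genes, beside 6.26% of all measured features. Such intervals narrow with more reads, and all measured features were not matched to the 9 genes in depth. The steps share the JC-P library and are not independent. At the first step 0 of 9 genes were called higher and 0 lower, beside backgrounds of 4.76% and 2.33% of measured features and 7.1% for either direction. At the second step 0 were called higher (background 3.82%) and 1, Twist2, lower (5.38%), with 9.2% for either direction. End to end, 2 were called higher, Snai2 and Fn1 (background 6.14%), and 1 lower, Twist2 (5.27%), with 11.4% for either direction. The ratios nearest the limit were that of Zeb1 end to end, 0.98 and so not called, and that of Twist2 at the second step, -1.08 and called. The median ratio of the 9 genes was 0.17 at the first step, 0.12 at the second and 0.02 end to end, against 0.01, -0.01 and 0.00 over all measured features. In bulk RNA a different share of cells expressing a gene and a different amount of its RNA per cell cannot be told apart.

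**Figure D2:**
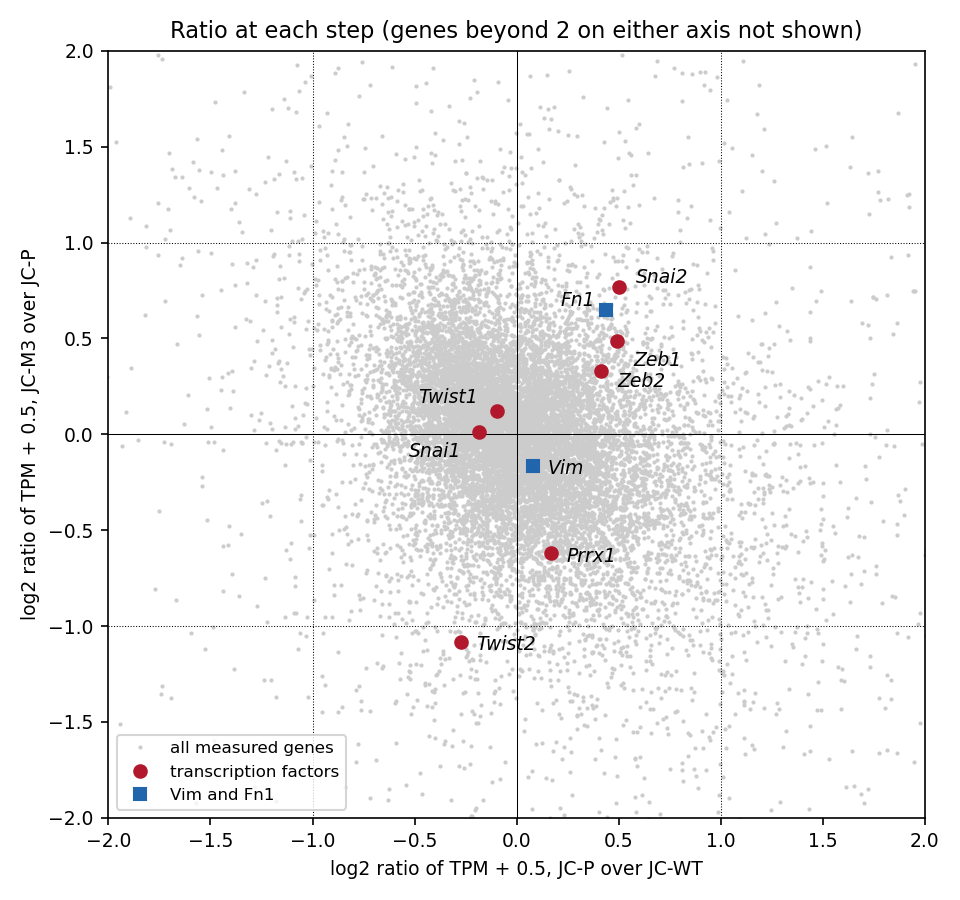
Log2 ratio of TPM + 0.5 at the first step (x axis, JC-P to JC-WT) and the second step (y axis, JC-M3 to JC-P) for all measured features (grey), the 7 transcription factor genes (red circles) and Vim and Fn1 (blue squares); dotted lines mark 2-fold. Snai2, Zeb1, Zeb2 and Fn1 lie up and to the right of 0 and Twist2 lies below the dotted line at -1.08; the axes share the JC-P library.

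In the SNAIL family Snai1 was nearly level and Snai2 was higher at each step. Snai1 encodes SNAIL, the founding E-cadherin repressor of the family, and lies on chromosome 2 from 167538195 to 167542814 (GRCm38, plus strand). Its level was 108, 94.7 and 95.7 TPM, from 936, 1009 and 1064 reads, with JC-WT slightly above the other two. The ratio of Snai1 was -0.18 (-0.31 to -0.05) at the first step, 0.01 (-0.11 to 0.14) at the second and -0.17 (-0.30 to -0.04) end to end. The last 2 became 0.24 and 0.14 with the median of chromosome 2 subtracted. Snai2 encodes SLUG, a paralogue known from neural crest and mammary basal cells, and lies on chromosome 16 from 14705852 to 14709385 (plus strand). Its level was 15.8, 22.5 and 38.7 TPM, from 171, 299 and 536 reads. JC-WT was lowest and JC-M3 highest, and the Poisson intervals of the levels (13.5 to 18.3, 20.0 to 25.2 and 35.5 to 42.1 TPM) did not overlap. The ratio of Snai2 was 0.50 (0.24 to 0.79) at the first step, 0.77 (0.57 to 0.99) at the second and 1.27 (1.04 to 1.55) end to end, or 2.41-fold higher. Snai2 held 12.8%, 19.2% and 28.8% of the summed TPM of the pair, while that sum was 123, 117 and 134 TPM. The third paralogue, Snai3, had 0, 1 and 0 reads.

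Promoter windows were searched for E-boxes because the SNAIL, ZEB and TWIST proteins all bind this class of motif. The RefSeq windows run from 250 bases before to 50 bases after a transcript start (GRCm38.p6). An entry was found for 6 of the 9 genes, and Snai2, Zeb1 and Fn1 had none. Where a gene had several entries, as Zeb2 with 4, only the window nearest the annotated gene start was searched. The motifs were CAGGTG (reverse complement CACCTG), the general E-box CANNTG, which includes CAGGTG, the TATA box TATAAA and the CCAAT box CCAAT, each on both strands. Of all 32851 windows, 20.2% held CAGGTG, 72.3% CANNTG, 13.6% TATAAA and 37.4% CCAAT. Among the 6 genes CAGGTG, and CANNTG, was found in 1, Snai1, as a CACCTG at position -126 from the start. The Snai1 window is shown for that E-box, the Twist1 and Twist2 windows as paralogues with unlike ratios, and the Zeb2 window as a gene higher at each step; capitals mark the motifs named above.
Snai1, chr2:167537945-167538244, plus strand: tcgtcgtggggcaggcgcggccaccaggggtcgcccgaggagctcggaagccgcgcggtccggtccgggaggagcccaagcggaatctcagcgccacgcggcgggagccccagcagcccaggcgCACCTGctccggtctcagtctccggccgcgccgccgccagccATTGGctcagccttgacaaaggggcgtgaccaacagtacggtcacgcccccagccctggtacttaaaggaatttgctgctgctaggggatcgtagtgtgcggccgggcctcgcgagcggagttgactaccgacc
Twist1, chr12:33957421-33957720, plus strand: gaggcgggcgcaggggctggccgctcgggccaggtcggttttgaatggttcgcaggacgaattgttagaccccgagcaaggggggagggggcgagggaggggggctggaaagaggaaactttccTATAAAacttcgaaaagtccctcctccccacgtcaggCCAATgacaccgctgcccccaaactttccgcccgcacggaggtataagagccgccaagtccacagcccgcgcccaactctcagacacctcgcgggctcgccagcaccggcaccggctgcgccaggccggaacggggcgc
Twist2, chr1:91801211-91801510, plus strand: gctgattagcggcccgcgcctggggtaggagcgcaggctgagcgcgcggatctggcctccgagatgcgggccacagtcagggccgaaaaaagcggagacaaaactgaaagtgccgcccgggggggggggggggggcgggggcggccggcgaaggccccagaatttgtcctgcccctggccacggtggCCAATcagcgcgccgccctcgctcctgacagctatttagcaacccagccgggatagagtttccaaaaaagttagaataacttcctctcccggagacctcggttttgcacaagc
Zeb2, chr2:45117393-45117692, minus strand: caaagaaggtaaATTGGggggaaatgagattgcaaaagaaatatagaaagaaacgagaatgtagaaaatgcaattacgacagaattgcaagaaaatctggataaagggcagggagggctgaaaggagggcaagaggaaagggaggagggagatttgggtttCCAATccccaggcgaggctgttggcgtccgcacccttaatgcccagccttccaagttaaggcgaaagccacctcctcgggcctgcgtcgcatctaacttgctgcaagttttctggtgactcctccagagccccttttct
Twist1 holds a TATAAA at -126 and a CCAAT at -89, Twist2 a CCAAT at -63, and Zeb2 a CCAAT on each strand, at -238 and -89. These matches of letters are a description and no measure of binding.

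The miR-200 family is the known brake on ZEB messages: its members pair with sites in the 3′ untranslated regions of both genes, and the ZEB proteins repress the miR-200 genes in turn. The mature sequences (RefSeq, GRCm38.p6) are shown with the seed, bases 2 to 8, in capitals. They fall into 2 seed groups, AACACUG and AAUACUG.
mmu-miR-141-3p: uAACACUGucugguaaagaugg
mmu-miR-200a-3p: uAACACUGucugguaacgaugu
mmu-miR-200b-3p: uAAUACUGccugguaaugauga
mmu-miR-200c-3p: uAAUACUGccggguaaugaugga
mmu-miR-429-3p: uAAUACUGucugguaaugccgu
The 3′ untranslated region of the longest annotated Zeb2 coding transcript (4941 bases) held 5 matches to the AAUACUG seed and 4 to the AACACUG seed. For each seed the match nearest the stop codon is shown, with the bases complementary to the seed in capitals.
Zeb2 site for miR-200b, miR-200c and miR-429, chr2:44988166-44988188, minus strand: ccatacatCAGTATTttattatt
Zeb2 site for miR-141 and miR-200a, chr2:44988350-44988372, minus strand: attttgtaCAGTGTTaaggccta
All 5 hairpin genes of the family had 0 reads in every library. For genes this short a floor of 3 reads allows between 4.86 and 8.10 TPM, and poly(A) libraries do not hold mature miRNAs, so these were not measured.

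Both ZEB genes were higher at each step, by similar ratios. Zeb1, on chromosome 18 from 5591860 to 5775467 (plus strand), encodes the zinc finger homeobox repressor ZEB1. Its level was 17.4, 24.6 and 34.7 TPM, from 956, 1658 and 2442 reads, and the Poisson intervals of the levels did not overlap. The ratio of Zeb1 was 0.49 (0.39 to 0.62) at the first step, 0.49 (0.41 to 0.59) at the second and 0.98 (0.89 to 1.11) end to end. Scaling the libraries by their median ratio took the last to 1.00, on the 2-fold limit. Zeb2, on chromosome 2 from 44983632 to 45117395 (minus strand), encodes its paralogue and was the least abundant of the 9 genes. Its level was 5.51, 7.49 and 9.57 TPM, from 597, 995 and 1326 reads, again lowest in JC-WT, highest in JC-M3 and without overlap. The ratio of Zeb2 was 0.41 (0.30 to 0.59) at the first step, 0.33 (0.23 to 0.47) at the second and 0.75 (0.66 to 0.94) end to end. Over the 927 measured protein-coding genes of chromosome 2 the median end-to-end ratio was -0.31, and with it subtracted Zeb2 came to 1.05, past 2-fold; the second step came to 0.56 in the same way. Zeb2 held 24.1%, 23.4% and 21.6% of the summed TPM of the ZEB pair, so its composition differed little while the sum was 22.9, 32.1 and 44.2 TPM. The antisense gene Zeb2os covers 3.27% of the exon bases of Zeb2 and was highest in JC-P, at 2.34, 6.81 and 3.08 TPM.

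In the TWIST family Twist1 was level and Twist2 was lower in JC-M3. Twist1, on chromosome 12 from 33957671 to 33959829 (plus strand), encodes a factor of mesoderm and neural crest. Its level was 92.9, 87.0 and 94.5 TPM, from 812, 931 and 1056 reads. The ratio of Twist1 was -0.09 (-0.23 to 0.04) at the first step, 0.12 (-0.01 to 0.25) at the second and 0.02 (-0.11 to 0.16) end to end, so all 3 intervals included no change. Twist2, on chromosome 1 from 91801461 to 91848028 (plus strand), encodes the paralogue also called Dermo1. Its level was 35.4, 29.2 and 13.5 TPM, from 603, 610 and 295 reads. JC-M3 stood apart, with an interval of 12.0 to 15.2 TPM, while those of JC-WT (32.6 to 38.3 TPM) and JC-P (27.0 to 31.7 TPM) were closer to each other without overlapping. The ratio of Twist2 was -0.27 (-0.44 to -0.11) at the first step, -1.08 (-1.32 to -0.91) at the second and -1.35 (-1.59 to -1.18) end to end, or 2.56-fold lower. Twist2 held 27.6%, 25.2% and 12.5% of the summed TPM of the pair. The antisense gene Gm29100 covers 46.5% of the exon bases of Twist2 and was listed at 1.35, 2.07 and 0.99 TPM. The library kit keeps strand, but no source used here gives the strand setting of the counting, so reads of such antisense partners may not be separated.

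**Figure D3:**
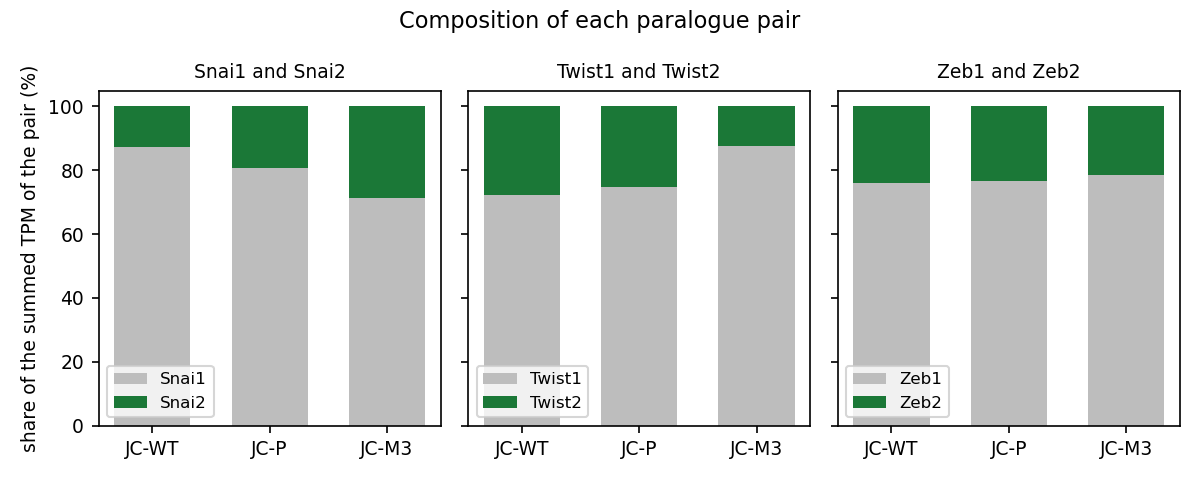
Share of the summed TPM (percent) held by each gene of the SNAIL, TWIST and ZEB pairs (second gene in green) in 1 library per population (JC-WT, JC-P, JC-M3). The share of Snai2 was 12.8%, 19.2% and 28.8%, that of Twist2 27.6%, 25.2% and 12.5%, and that of Zeb2 24.1%, 23.4% and 21.6%.

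Prrx1, which encodes the paired-related homeobox factor of limb and craniofacial mesenchyme, was highest in JC-P and lowest in JC-M3. It lies on chromosome 1 from 163245119 to 163313710 (minus strand), and its level was 81.2, 91.4 and 59.3 TPM, from 4820, 6648 and 4501 reads. The ratio of Prrx1 was 0.17 (0.12 to 0.23) at the first step, -0.62 (-0.68 to -0.57) at the second and -0.45 (-0.51 to -0.39) end to end, within 2-fold each time. With the median of chromosome 1 subtracted the first of these was 0.08. Summed over the 7 factors, the level was 356, 357 and 346 TPM, nearly the same in the 3 libraries while its parts differed. Snai2 made up 4.43% of this sum in JC-WT and 11.2% in JC-M3, and Zeb1 made up 4.88% and 10.0%. Twist2 made up 9.95% in JC-WT and 3.92% in JC-M3, and Prrx1 22.8% and 17.1%.

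The marker genes parted, with Fn1 higher at each step and Vim nearly level. Vim, on chromosome 2 from 13573927 to 13582826 (plus strand), had 2528, 2674 and 2384 TPM, from 64344, 83340 and 77574 reads. The ratio of Vim was 0.08 (0.07 to 0.10) at the first step, -0.17 (-0.18 to -0.15) at the second and -0.08 (-0.10 to -0.07) end to end; so many reads make the intervals narrow although the differences are small. With the median of chromosome 2 subtracted these were 0.16, 0.06 and 0.22, so the last 2 changed sign. Fn1, on chromosome 1 from 71585520 to 71653200 (minus strand), had 447, 606 and 949 TPM, from 28025, 46499 and 76072 reads. The ratio of Fn1 was 0.44 (0.42 to 0.46) at the first step, 0.65 (0.63 to 0.66) at the second and 1.09 (1.07 to 1.11) end to end, or 2.12-fold higher. With the median of chromosome 1 (0.13 end to end) subtracted this last ratio was 0.96, short of 2-fold. Twist2 and Prrx1 also lie on chromosome 1, and with its median subtracted their end-to-end ratios were -1.48 and -0.58. A chromosome-wide part in the ratio of Fn1 was not tested.

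Among genes that these factors are known to repress, some junction and keratin genes were lower in JC-M3, and much of the list fell below the limit of 1 TPM. Over all measured features, 4.76%, 3.82% and 6.14% were called higher at the first step, the second and end to end. The shares called lower were 2.33%, 5.38% and 5.27%, and these backgrounds hold for this list and those below. Of 30 junction, keratin and polarity genes 14 were measured. At the first step 0 were called higher and 4 lower (Krt7, Muc1, Ocln and Pkp1), with a median ratio of -0.18. At the second step 3 were higher, Krt7 and Pkp2 among them, and 7 lower, with a median of -0.88. End to end 0 were higher and 6 lower, namely Pkp1, Pkp3, Jup, Ocln, Krt8 and Krt18, with a median of -0.60. Pkp1, encoding the desmosomal protein plakophilin 1, had 21.1, 8.57 and 1.68 TPM, a ratio of -3.31 (-4.07 to -3.26) end to end. Jup, encoding plakoglobin of desmosomes and adherens junctions, had 48.2, 26.7 and 7.09 TPM. Ocln, encoding the tight junction protein occludin, had 92, 24 and 1 reads, and its end-to-end interval ran from -12.20 to -4.36. These 3 genes were lower at each step, the order of Twist2. Cldn1, a claudin gene, was highest in JC-P, at 19.5, 35.2 and 10.7 TPM. Krt8 and Krt18 were lower at the second step, with ratios of -1.46 (-1.49 to -1.42) and -1.38 (-1.66 to -1.15), after ratios no larger than 0.32 at the first.

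A promoter window was found for 9 of the 14 measured epithelial genes, and 6 of these held CAGGTG: Ocln, Krt7, Krt8, Krt18, Patj and Muc1. The windows of Jup, Cldn1 and Tjp1 did not. The Tjp1 window lies 156537 bases from the annotated gene start and the Krt7 window 1360 bases, so other promoters of these genes were not searched. The list was composed of known targets of these repressors, so this count describes the list. Krt7, Patj and Muc1 hold the motif but were within 2-fold end to end, at -0.03, -0.27 and -0.36. Without the motif in the window searched, Jup was at -2.68, Cldn1 at -0.84 and Tjp1 at 0.50. A link between motif and ratio was not tested. The windows of Ocln, Krt8 and Krt18 are shown as those of genes called lower end to end that hold the motif. Capitals mark the 4 motifs given earlier.
Ocln, chr13:100552669-100552968, minus strand: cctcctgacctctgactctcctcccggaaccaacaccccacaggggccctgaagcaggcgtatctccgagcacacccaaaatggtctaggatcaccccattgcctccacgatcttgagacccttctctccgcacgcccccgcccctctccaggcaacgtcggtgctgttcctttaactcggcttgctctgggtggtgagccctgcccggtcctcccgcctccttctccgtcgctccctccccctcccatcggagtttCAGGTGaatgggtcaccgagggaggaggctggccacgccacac
Krt8, chr15:102004293-102004592, minus strand: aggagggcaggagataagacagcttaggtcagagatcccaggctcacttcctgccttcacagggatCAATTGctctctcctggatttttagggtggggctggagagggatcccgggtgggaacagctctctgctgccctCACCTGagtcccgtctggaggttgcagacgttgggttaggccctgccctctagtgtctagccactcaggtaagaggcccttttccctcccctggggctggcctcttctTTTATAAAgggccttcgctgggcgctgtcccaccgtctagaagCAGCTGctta
Krt18, chr15:102027966-102028265, plus strand: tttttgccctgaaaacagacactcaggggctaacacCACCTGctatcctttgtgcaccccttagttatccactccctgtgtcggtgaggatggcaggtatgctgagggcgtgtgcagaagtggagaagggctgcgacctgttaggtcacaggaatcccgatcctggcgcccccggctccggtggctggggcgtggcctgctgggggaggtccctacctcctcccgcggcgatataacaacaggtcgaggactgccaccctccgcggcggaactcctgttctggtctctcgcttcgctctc
The motif lies at position 7 in Ocln, as a CACCTG at -111 in Krt8 and as a CACCTG at -214 in Krt18.

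Genes that guard the epithelial state were mostly below 1 TPM. Of 16 such genes 4 were measured, Klf4, Klf5, Elf3 and Gata3, and 0 of these were 2-fold different in any comparison. Gata3, a zinc finger gene of luminal mammary cells, had 73.6, 65.0 and 81.1 TPM, and the zinc finger gene Klf4 had 28.4, 22.8 and 32.7 TPM. The splicing regulator gene Esrp1 had 0, 0 and 1 reads, Ovol2, a known ZEB1 antagonist, had 0 reads throughout, and Grhl2, a grainyhead factor gene known to repress Zeb1, had 2, 0 and 5 reads. Esrp2 had 7, 3 and 25 reads, and Grhl1 had 10, 18 and 36. Trp63 had 2, 9 and 20 reads, and Foxa1 had 2, 2 and 13. End-to-end intervals lay above no change for Esrp2, Grhl1, Trp63, Foxa1, Elf3, Klf4 and Gata3, and below it for Klf5 (-0.71 to -0.35).

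Other mesenchymal markers were divided, with more of them higher than lower in JC-M3. Of 32 such genes 26 were measured. At the first step 3 were higher (Col3a1, Fbn1 and Mmp2) and 1 lower (Acta2), with a median ratio of 0.08. At the second step 8 were higher and 3 lower (Col3a1, Mmp2 and Pdgfra), with a median of 0.38. End to end 8 were higher and 1 lower (Tnc, the matrix gene tenascin C), with a median of 0.62. Acta2, encoding smooth muscle actin, had 16.5, 2.22 and 642 TPM, the widest swing of the list. Col1a1, a collagen I chain gene, had 132, 261 and 949 TPM, and Fstl1, a follistatin-like gene, had 7.77, 14.6 and 132 TPM, both in the order of Fn1. Col3a1, a collagen III gene, was highest in JC-P, at 3.99, 46.0 and 8.76 TPM. Cdh2, encoding the N-cadherin that commonly replaces E-cadherin, had 41.4, 30.3 and 41.2 TPM, within 2-fold in each comparison.

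**Figure D4:**
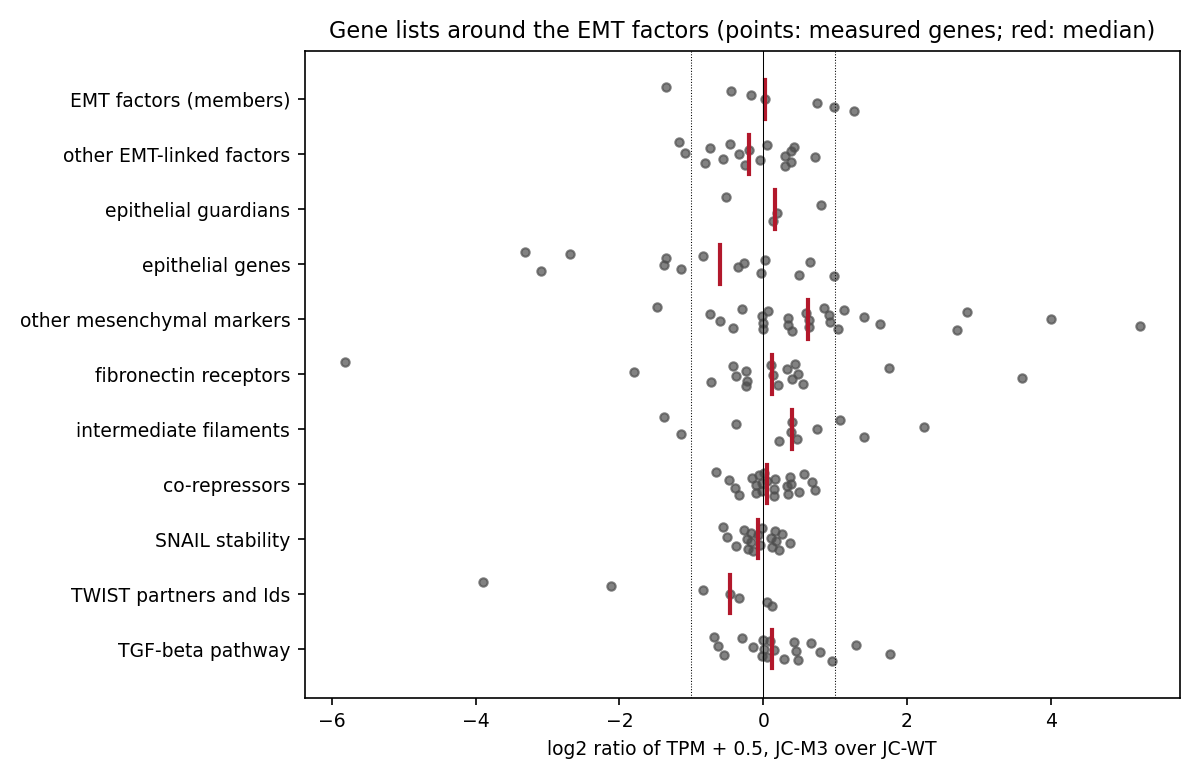
Log2 ratio of TPM + 0.5 of JC-M3 to JC-WT (x axis) for every measured gene (points) in the gene lists around the EMT factors (y axis), with the median of each list in red. Epithelial genes had a median of -0.60, other mesenchymal markers of 0.62, and no co-repressor or SNAIL stability gene reached 2-fold, beside 11.4% of all measured features.

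Fibronectin is bound and assembled by integrins, mainly the pair encoded by Itga5 and Itgb1. Itga5 had 139 TPM in JC-WT and 195 in JC-M3, and Itgb1 had 564 and 831 TPM, both within 2-fold. Of 18 measured genes of fibronectin binding and adhesion (21 listed), 1 was higher and 2 lower at the first step (median ratio -0.06), 1 higher and 1 lower at the second (0.19), and 2 higher and 2 lower end to end (0.13). The higher ones were the tensin gene Tns1, at 1.40, 11.9 and 22.5 TPM, and the integrin gene Itgb5, at 28.9, 32.4 and 98.5 TPM. The lower ones were the tensin gene Tns4, at 202, 79.5 and 3.07 TPM, and the integrin gene Itga8, at 4.80, 0.909 and 1.03 TPM. Tns1 and Tns4 thus stood on opposite sides beside a higher Fn1. The tensin genes Tns2 (188, 203 and 249 TPM) and Tns3 (126, 125 and 106 TPM) were within 2-fold.

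Among the filament genes that act beside vimentin, Nes, Sync and the linker gene Dst were higher and the keratins lower in JC-M3. Of 11 measured genes (18 listed), 1 was higher, Sync, and 0 lower at the first step (median ratio 0.11). At the second step 0 were higher and 2 lower (0.41), and end to end 3 were higher and 2 lower (0.41), the lower ones being Krt8 and Krt18. Nes, encoding nestin, which assembles with vimentin, had 143, 265 and 380.3 TPM, a ratio of 1.40 (1.36 to 1.45) end to end. Sync, encoding syncoilin, had 3.78, 11.5 and 19.7 TPM. Both were in the order of Fn1, beside a nearly level Vim.

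The proteins through which SNAIL and ZEB act were within 2-fold by their transcripts. Of 24 co-repressor genes 23 were measured and 0 were 2-fold different in any comparison, with medians of -0.07, 0.20 and 0.05 (first step, second step, end to end). The background for either direction was 7.1%, 9.2% and 11.4% of measured features. The largest ratio was that of Ajuba at the second step, 0.93 (0.84 to 1.03). The histone-binding gene Rbbp7 had 334, 326 and 374 TPM, and Mbd3, of the NuRD complex, had 279, 229 and 276 TPM. Of 19 genes that control the stability of SNAIL protein, all measured, 0 were 2-fold different in any comparison, with medians of -0.01, 0.05 and -0.08. Among them Ctdsp1, encoding a phosphatase of SNAIL, had 126, 105 and 112 TPM, and Psmd14, encoding a deubiquitinase of the proteasome, had 119, 118 and 99.3 TPM. Nearest the limit was Usp27x, at -0.99 (-1.49 to -0.73) at the second step.

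The E proteins with which TWIST pairs are sequestered by Id proteins, and the Id genes Id1 and Id4 were lower in JC-M3. Of 9 partner and Id genes 7 were measured; 0 were higher in any comparison, and 1 (Id4), 2 and 2 (Id1 and Id4) were lower at the first step, the second and end to end, with medians of -0.47, -0.54 and -0.47. Id1 had 191, 111 and 43.6 TPM, a ratio of -2.12 (-2.31 to -1.96) end to end. Id4 had 14.3, 3.95 and 0.492 TPM, from 296, 100 and 13 reads. Id2, Id3 and the E protein genes Tcf3, Tcf4 and Tcf12 were within 2-fold in each comparison.

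Signalling by TGF-beta is a main inducer of the factors. All 20 genes of this list were measured, with 0 higher and 1 lower (Ltbp2) at the first step, 4 higher and 0 lower at the second, and 2 higher (Tgfb2 and Ltbp2) and 0 lower end to end; the medians were -0.07, 0.11 and 0.12. The 4 at the second step were Ltbp2, Tgfb2, Skil and Tgfb1. The ligand genes had 12.8, 8.09 and 17.8 TPM (Tgfb1) and 0.740, 0.526 and 3.73 TPM (Tgfb2). Ltbp2, of the latent TGF-beta binding protein family, had 35.9, 14.4 and 88.9 TPM, and Skil, a feedback target and SMAD inhibitor gene, had 14.8, 12.2 and 29.2 TPM. All 4 were listed lowest in JC-P, but for Tgfb2, with 23, 20 and 148 reads, JC-WT and JC-P were not separated by counting error (-1.43 to 0.44 at the first step). For Snai2, Zeb1, Zeb2 and Fn1 the level was lowest in JC-WT, between in JC-P and highest in JC-M3. Tgfbr2, Smad3 and Acvr1b of this list had that order too, with counting intervals above no change at both steps. Their levels were 108, 172 and 187 TPM (Tgfbr2), 94.0, 116 and 132 TPM (Smad3), and 7.76, 9.40 and 12.6 TPM (Acvr1b). A link between this list and the levels of the factors was not tested.

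Of 23 further transcription factor genes linked to the transition 17 were measured. At the first step 0 were 2-fold different (median -0.32), at the second 1 was higher and 0 lower (0.14), and end to end 0 were higher and 2 lower (-0.19). The higher one was the forkhead gene Foxc2, with 6.15, 3.18 and 8.18 TPM and a ratio of 1.24 (0.91 to 1.83) at the second step. The lower ones were Sox4, an HMG-box gene, with 218, 187 and 96.6 TPM, and Tead2, encoding a partner of YAP, with 60.6, 48.5 and 28.2 TPM, both in the order of Twist2.

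Markers of other cell types that a tumour or lung isolate could hold were read beside these values. Of 10 fibroblast markers 6 were measured, with summed levels of 90.7, 158 and 145 TPM, and Lum and Thy1 had 0 reads throughout. At the first step 2 of the 6 were higher (Col3a1 and Dcn) and 0 lower, at the second 1 was higher (Col1a2) and 3 lower (Col3a1, Dpt and Pdgfra), and end to end 3 were higher (Col1a2, Col3a1 and Dcn) and 1 lower (Dpt). Dcn, encoding the matrix proteoglycan decorin, had 1.24, 14.0 and 22.5 TPM, lowest in JC-WT and highest in JC-M3 like Fn1. Dpt, encoding dermatopontin, had 21, 24 and 3 reads. The list shares Col1a2, Col3a1, Pdgfra, Pdgfrb, Lum and Thy1 with the mesenchymal list above.

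Of 10 smooth muscle and pericyte markers 5 were measured, and the sums over the list were 34.4, 11.6 and 743 TPM. Not measured were Cnn1 (0, 1 and 2 reads), Myh11 (1, 5 and 0), Notch3 (0, 4 and 0) and Cspg4 (2, 1 and 6). Rgs5, also not measured, was lower at each step, with 48, 17 and 5 reads. At the first step 0 of the 5 measured were higher and 3 lower (Acta2, Actg2 and Mcam). At the second 4 were higher (these and Tagln) and 0 lower, and end to end 2 were higher (Acta2 and Actg2) and 0 lower. Actg2, an actin gene of smooth muscle, had 12, 1 and 775 reads, and Mcam, an adhesion molecule gene, had 9.68, 2.00 and 19.8 TPM. Acta2 and Tagln are also on the mesenchymal list. Of 10 endothelial markers 2 were measured, Cdh5 and Plvap, with sums of 8.16, 36.1 and 3.29 TPM, and Kdr and Cldn5 had 0 reads throughout. Cdh5, encoding the cadherin of endothelial junctions, had 2, 490 and 3 reads, and Plvap, a gene of endothelial fenestrae, had 81, 233 and 37 reads. Both were called higher at the first step and lower at the second, so both stood highest in JC-P. Of 10 myeloid and leukocyte markers 1 was measured, Cd68, with sums of 13.6, 8.35 and 10.3 TPM, and 6 of them, Ptprc and Adgre1 included, had 0 reads throughout. Of 10 lymphocyte markers 0 were measured (sums 0.358, 0 and 0.395 TPM). The lung epithelial list had 1 measured gene, Ager, and sums of 1.75, 4.60 and 3.70 TPM, and Sftpc had 0 reads throughout. The adipocyte list had 1 measured gene, the lipase gene Lipe, lower end to end at 15.3, 12.6 and 6.24 TPM, and Adipoq had 0 reads throughout. The part of such cells in the ratios of the 9 genes was not tested.

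For the 3 genes called at 2-fold, the genes with the most similar pattern were sought among 8517 named protein-coding genes with a mean of 10 TPM or more, by the distance between the log2 ratios at both steps. Nearest to Snai2 were Msrb3 (distance 0.0192) and Ddah2 (0.0196), nearest to Twist2 was Podxl (0.0221), and nearest to Fn1 were Magi3 (0.0310) and Ago3 (0.0421). Msrb3, a methionine sulfoxide reductase gene, had 49.6, 69.8 and 120.2 TPM, and Podxl, encoding the sialomucin podocalyxin, had 40.1, 32.6 and 15.2 TPM. Likeness over 3 libraries is a loose criterion: 38, 45 and 83 genes lay within 0.25 of Snai2, Twist2 and Fn1.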

How the data were processed

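Poly(A) RNA of 3 cultured JC populations was sequenced, 1 library each. The authors deposited TPM values per gene, per the file headers. Per the submitters' processing notes, the tools were featureCounts, STAR (2.7.9a) and FastQC (0.11.9), and the builds GRCm38 and mm10; the annotation and strand setting are unstated in the sources used here. TPM times merged exon length (GENCODE M21, 55230 features) gave whole reads, within 0.01, for 98.4%, 98.5% and 98.5% of expressed features (JC-WT, JC-P, JC-M3); for Zeb2 a length of 20203 bases was used, since 19942 did not give whole reads.

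Ratios used TPM + 0.5. Intervals (95%) are conditional Clopper-Pearson for ratios and exact Poisson for levels, and floors are 3 reads; reads are not independent molecules, so all cover counting error only. In each pathway list, up to 4 genes with the largest ratio past 2-fold were named, or the most abundant where none passed; any other gene was named after its values were seen, and a few genes are not reported here. Members and lists were chosen with earlier results of these data known. At most 0.963% of the 50-base windows of a gene occurred in other genes. Scripts were tested on simulated data. Alternatives were pseudocounts, scalings, filters on the mean, and chromosome medians. Software: Python 3.11.15, pandas 2.3.3, numpy 2.4.6, matplotlib 3.10.9, scipy 1.17.1.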

Additional observations from a re-analysis of the deposited data

How the results depend on the processing

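The 4 called ratios (Snai2 and Fn1 end to end, Twist2 at the second step and end to end) kept their direction in all 24 combinations with 6 alternatives: pseudocounts 0.1, 1 and 2, median-ratio scaling, rescaling without mitochondrially encoded features, and subtraction of chromosome medians, the last chosen after seeing the data. They stayed past 2-fold in 23 of these, the exception being Fn1 at 0.96 with chromosome medians subtracted. Their ranges were 1.19 to 1.29 for Snai2, 0.96 to 1.11 for Fn1, and -1.10 to -1.01 (second step) and -1.48 to -1.27 (end to end) for Twist2. Over all ratios 145 of 162 alternative values lay inside the counting interval of the reported value and 17 outside. Among ratios not called, Zeb1 end to end reached 1.00 with median-ratio scaling, making 3 genes higher, and Zeb2 end to end ranged from 0.62 (pseudocount 2) to 1.05 (chromosome medians). With median-ratio scaling the median ratio of all measured features was 0.04, -0.02 and 0.02 (first step, second step, end to end), against 0.01, -0.01 and 0.00 without it. Without a filter on the mean, or with its limit set to 5 TPM, the counts of called members were unchanged, but the background shares were not. With the limit of 5 TPM, 2.36% of features were called higher and 1.07% lower at the first step. At the second step these shares were 2.26% and 3.54%, and end to end 3.59% and 3.63%. No paired analysis was possible because each population has 1 library. Depth limits genes with few reads, Cdh1 among them.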
